A study of Mus musculus with 30 samples.

Results

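The nuclear genes for subunits of the mitochondrial respiratory chain and ATP synthase were followed in naive (TN) and memory (TMem) CD8 T cells of the mouse. Members were the genes named alone by an array probe set whose symbol begins with Ndufa, Ndufb, Ndufc, Ndufs or Ndufv and a digit, is Sdha to Sdhd, begins with Uqcr or Atp5, or is a subunit of the Cox4 to Cox8 series. This gave 81 of the 19938 genes measured: 33 in complex I, 4 in complex II, 8 in complex III, 19 in complex IV and 17 in complex V, the ATP synthase. Ndufa4, named for complex I, was counted with complex IV, where its protein is now placed. Cox7a2l and Ndufa4l2 met the rule by name without being subunits of the enzyme itself. No subunit encoded by mitochondrial DNA was among the genes measured.

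All cells were Pmel-1 CD8 T cells, which carry a transgenic T cell receptor, from the spleens of C57BL/6 mice labelled female and 6 to 12 weeks old. TN cells carried the congenic marker Ly5.1, and TMem cells carried Ly5.2 and had been differentiated in vitro. The 10 groups of 3 arrays were TN alone and TMem alone at 0 h without stimulation, and, after 18 h or 96 h with IL-2 and antibodies against CD3 and CD28, TN alone, TN mix, TMem alone and TMem mix. Mix means that TN and TMem cells were stimulated together before they were separated by flow cytometry, and cells of every group were sorted. The labels call the 3 samples of a group biological repeats. The TMem cells are an in vitro product, so they stand for memory cells formed in culture.

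Electrons from NADH enter the chain at complex I and those from succinate at complex II, which is also an enzyme of the TCA cycle. They pass through ubiquinone to complex III, then through cytochrome c to complex IV, which reduces oxygen, and the proton gradient made on the way drives complex V. Resting naive T cells rely mainly on oxidative phosphorylation, and activation brings growth of mitochondria together with a strong rise in glycolysis.

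Promoters are shown for 4 genes to which the results return: Sdhd (gene 66925), which differed most between TN mix and TN alone at 18 h, Sdha (gene 66945), its catalytic partner, and Uqcrh (gene 66576) and Cox7a2l (gene 20463), which were high in resting naive cells. Each sequence is the 200 bases before the RefSeq start of the gene in GRCm38.p6, read 5′ to 3′ on the gene's own strand, the minus strand for all 4. They lie at chr9:50603850-50604049 (Sdhd), chr13:74350241-74350440 (Sdha), chr4:116075071-116075270 (Uqcrh) and chr17:83514334-83514533 (Cox7a2l). Capitals mark matches to GCGCANGCGC, the core bound by NRF1, or to CCGGAAG, the core bound by GABPA, on either strand. Both factors are known regulators of nuclear genes for respiratory chain subunits.
Sdhd: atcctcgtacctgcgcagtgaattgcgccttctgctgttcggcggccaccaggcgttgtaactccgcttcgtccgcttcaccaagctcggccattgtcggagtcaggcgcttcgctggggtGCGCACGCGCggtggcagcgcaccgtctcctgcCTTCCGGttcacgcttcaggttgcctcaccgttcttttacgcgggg
Sdha: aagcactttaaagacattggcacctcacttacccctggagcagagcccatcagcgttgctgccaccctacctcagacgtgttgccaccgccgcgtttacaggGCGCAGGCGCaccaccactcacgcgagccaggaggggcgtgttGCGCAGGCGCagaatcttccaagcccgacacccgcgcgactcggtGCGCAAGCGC
Uqcrh: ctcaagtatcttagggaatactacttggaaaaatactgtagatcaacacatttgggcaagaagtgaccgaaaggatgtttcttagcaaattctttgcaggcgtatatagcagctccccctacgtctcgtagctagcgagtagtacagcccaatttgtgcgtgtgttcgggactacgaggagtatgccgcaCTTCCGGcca
Cox7a2l: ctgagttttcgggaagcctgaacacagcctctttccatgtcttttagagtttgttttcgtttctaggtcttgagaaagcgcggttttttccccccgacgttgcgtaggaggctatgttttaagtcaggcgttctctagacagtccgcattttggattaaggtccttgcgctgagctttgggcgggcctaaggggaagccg
Sdhd held 1 match for NRF1, 79 to 70 bases before the start, and 1 for GABPA, 46 to 40 bases before it. Sdha held 3 matches for NRF1, Uqcrh 1 for GABPA and Cox7a2l none. Of the 81 genes, 66 had a promoter window of 300 bases in the RefSeq table and 61 had exactly 1. The NRF1 core lay in 14 of these 61 windows (23.0%), against 7.32% of the windows of 12935 tested genes, and the GABPA core in 16 (26.2%), against 12.5%. AAGATGGC, the core bound by YY1, lay in 9 (14.8%), against 3.61%. At least 1 of the 3 lay in 34 of the 61 windows (55.7%) and in 20.9% of all windows. A match is a description of the letters and not a site shown to be bound.

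Values are log2 probe set values, so a difference of 1 is a doubling, and they cannot be compared between genes. Before the results, 1 array and the labels of sex need to be named. TN alone 0 h replicate 1 stood apart: its mean correlation with the other arrays of its group was 0.9804, the lowest of the 30, and the mean of all members, relative to each gene's mean over 30 arrays, was 0.45 on it against -0.02 and 0.07 on replicates 2 and 3. Counts, medians and the leading genes of comparisons that rest on the TN 0 h group are therefore given with and without it. The labels give female mice throughout, yet Eif2s3y, a gene of the Y chromosome, read 8.82 to 9.51 on the 15 TMem arrays, where Xist, the RNA of the inactive X, read 4.99 to 6.02. On the 6 arrays of TN alone at 0 h and 96 h Eif2s3y read 4 to 4.58 and Xist 9.34 to 12.11. TN alone at 18 h read 8.09 to 8.25 for Eif2s3y and 11.18 to 11.34 for Xist, and the 6 TN mix arrays read 7.34 to 8.5 and 10.94 to 11.78. Comparisons of TMem with TN, of TN alone at 18 h with 0 h or 96 h, and of TN mix with TN alone at 96 h therefore cannot be told apart from a difference in the sex of the cells on the arrays. At 18 h TN mix and TN alone both carried the 2 signals, with Eif2s3y at 8.21 to 8.5 in the mix and 8.09 to 8.25 alone. Xist read 10.94 to 11.02 in the mix, below its range alone. A different share of cells of each sex cannot be told apart from that comparison either. Among the members Cox7b, Ndufa1 and Ndufb11 lie on the X chromosome, and none on the Y. CD8 T cell markers were high everywhere, with 7 of the 9 listed genes measured and none near background (array means 10.83 to 11.96). The list of 6 mast cell and basophil markers had array means of 6.48 to 6.71 in TN alone at 96 h and 6.34 to 6.97 in TMem at 0 h, against 5.38 to 6 elsewhere, with Cpa3 at 8.58 and 9.42. Lyz2, a myeloid gene, averaged 8.26 in TN alone at 96 h and 5.2 to 5.84 in the other groups. The list of erythroid and platelet markers, 4 of 8 measured, had array means of 7.33 to 7.5 in TMem at 0 h. The part of these cells in any result was not tested.

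All 81 members passed a filter on low values, and by the lower quartile only Cox7b2, a testis isoform of complex IV, lay near background, in 7 of the 10 groups. Markers of other cells such as Cd4 (group means 6.16 to 6.53) and Alas2 (6.31 to 6.52) also lay above that bound. Cox6b2 (6.18 to 6.68), Cox8b (6.18 to 6.41), Cox8c (6.21 to 6.64) and Ndufa4l2 (6.43 to 6.66) had group means in or near that range. So did Cox7a1 in its lower groups, from 6.22. Whether these isoforms were expressed was not tested. A difference among the 10 groups was called for 59 of 81 members (72.8%) by limma's moderated F test at an adjusted p under 0.05, where 57.4% of all genes were called. By complex these were 22 of 33 in complex I, 4 of 4 in complex II, 6 of 8 in complex III, 13 of 19 in complex IV and 14 of 17 in complex V. The range of the 10 group means was small, with a median of 0.53 over the members, and reached 1 or more for 13 of them. The widest ranges were those of Cox7a2l (2.08), Ndufa6 (1.26), Ndufv3 (1.20) and Ndufa1 (1.18). The F test and these ranges include TN alone 0 h replicate 1. In that group Ndufa1 read 9.96 on replicate 1 against 8.76 and 8.93 on replicates 2 and 3, and Ndufa6 11.35 against 10.60 and 10.84. With all arrays the highest group mean was that of TN alone at 0 h for 33 members. The lowest was that of TN alone at 18 h for 25 and of TMem alone at 18 h for 14. The count of 33 rests in part on TN alone 0 h replicate 1. For Ndufb9, for example, that array read 11.20. Replicates 2 and 3 read 10.40 and 10.54, below the mean of 10.56 in TMem mix at 96 h. In bulk samples such as these, a change in the share of cells of one type and a change in the RNA of each cell cannot be told apart.

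**Figure D1:**
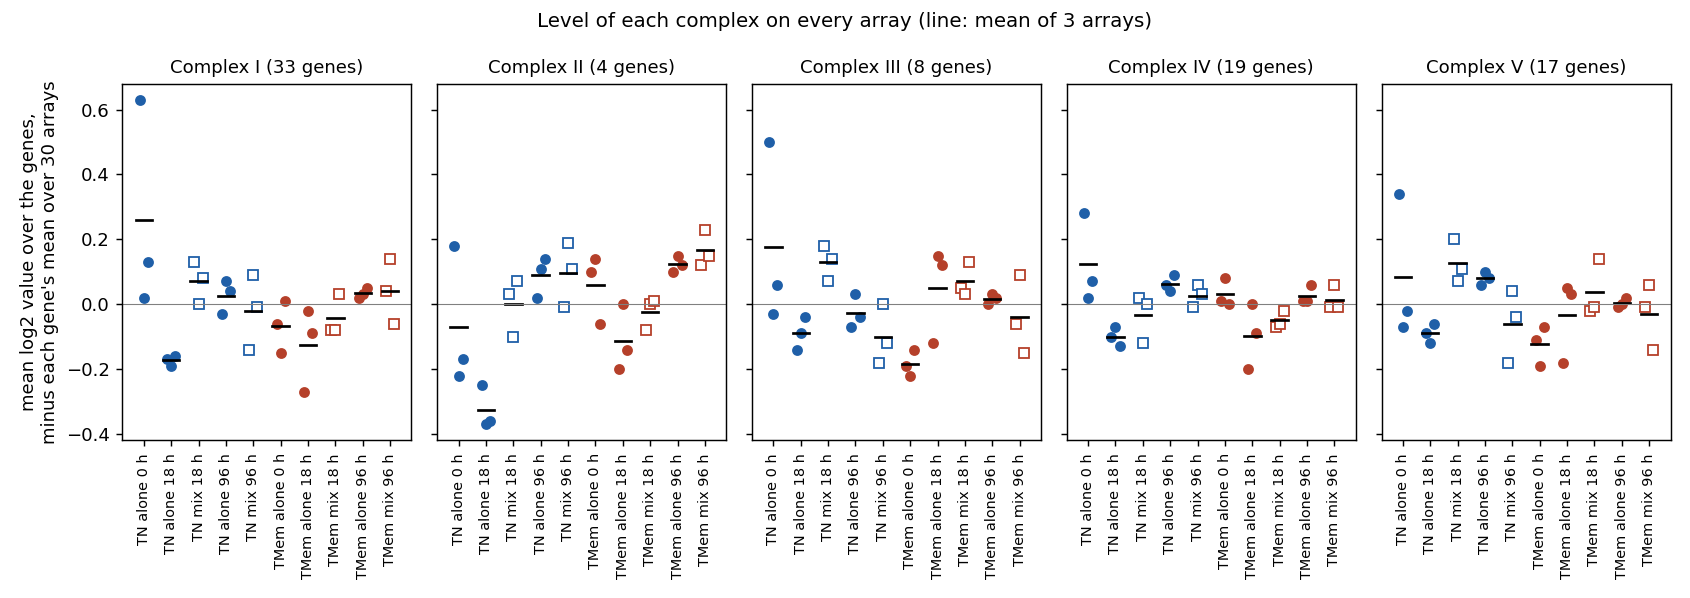
Level of each complex on every array, as the mean over its genes of the log2 value minus that gene's mean over 30 arrays (vertical axis), by group (horizontal axis). Circles are alone and open squares mix, blue is TN and red TMem, and black lines are means of 3 arrays. TN alone 0 h replicate 1 reaches 0.63 for complex I, against 0.02 and 0.13 for the other arrays of its group, and TN alone at 18 h lies below TN mix at 18 h for complexes I, II, III and V.

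The first comparison asks whether naive cells stimulated beside memory cells differ from naive cells labelled as stimulated alone. As said above, the share of cells of each sex may also differ between these groups. At 18 h, 18 of 81 members (22.2%) rose in TN mix over TN alone and 1 fell (1.23%), where 6.3% of all genes were called higher and 8.15% lower (limma, Benjamini-Hochberg adjusted p under 0.05). The median difference was 0.22 over the members and -0.01 over all genes. The 3 mix arrays all lay above the 3 alone arrays for 45 members and below for 4, and over all genes for 16.7% and 17.4%. Complex levels per array were -0.17, -0.19 and -0.16 in TN alone and 0.13, -0.00 and 0.08 in TN mix for complex I, and -0.25, -0.37 and -0.36 against 0.03, -0.10 and 0.07 for complex II. They were -0.14, -0.09 and -0.04 against 0.18, 0.07 and 0.14 for complex III, and -0.09, -0.12 and -0.06 against 0.20, 0.07 and 0.11 for complex V. In these 4 complexes the arrays of the 2 groups did not overlap. For complex IV they did, at -0.10, -0.07 and -0.13 against 0.02, -0.12 and -0.00.

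In complex I, 7 of 33 members rose and none fell, with a median difference of 0.26. Among the core subunits, which carry the redox centres, 1 of 6 rose. This was Ndufv2, which holds an iron-sulfur cluster of the NADH-oxidizing module, with 10.66, 10.46 and 10.65 in TN alone and 11.18, 11.05 and 11.10 in TN mix (log2 difference 0.52, SE 0.12, limma adjusted p = 0.00233, 2.81e-06 to 0.0239 over the alternatives). The other core subunits followed throughout did not pass the test: Ndufv1, which binds NADH and FMN, averaged 10.08 ± 0.06 and 10.24 ± 0.07 (SD, n = 3 each), and Ndufs1 8.99 ± 0.06 and 9.26 ± 0.13. Of the 27 accessory subunits, which surround the core, 6 rose. Ndufc2, of the membrane arm, read 12.38, 12.32 and 12.34 in TN alone and 12.90, 12.61 and 12.80 in TN mix (0.42, SE 0.09, limma adjusted p = 0.00175, 1.04e-06 to 0.0197 over the alternatives). Ndufb6, also of the membrane arm, read 11.37, 10.88 and 11.30 against 12.08, 11.79 and 11.86 (0.73, SE 0.19, limma adjusted p = 0.00698). For all 3 genes every mix array lay above every alone array. The range for Ndufb6 over the alternatives was 0.000137 to 0.0731, and its call was lost without TN alone 18 h replicate 2, the lowest array. The other 4 that rose were Ndufb3 (0.75), Ndufb5 (0.45), Ndufs6 (0.38) and Ndufs4 (0.33).

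In complex II, Sdhd, one of the 2 proteins that anchor succinate dehydrogenase in the inner membrane, rose. It read 10.16, 9.93 and 9.97 in TN alone and 10.89, 10.65 and 10.87 in TN mix, with no overlap (0.78, SE 0.14, limma adjusted p = 0.000303, 6.22e-08 to 0.00343 over the alternatives). This was the largest difference of the 81. Its level in TN alone at 18 h, 10.02 ± 0.12 (SD, n = 3), was also the lowest of the 10 groups, the others lying between 10.50 and 10.93. The 10.50 is the mean of TN alone at 0 h, whose arrays read 10.98, 10.23 and 10.30. Without TN alone 0 h replicate 1 the difference of 18 h from 0 h was -0.24 and was not called (limma adjusted p = 0.165). Sdha, the catalytic subunit that holds FAD, averaged 10.33 ± 0.09 in TN alone and 10.55 ± 0.08 in TN mix, and did not pass the test.

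In complex III, 2 of 8 rose. Uqcrc2, a core protein, read 11.38, 11.32 and 11.38 in TN alone and 11.75, 11.62 and 11.71 in TN mix (0.33, SE 0.07, limma adjusted p = 0.00198, 7.18e-06 to 0.0158 over the alternatives), again with no overlap, and Uqcrb, a small subunit, rose by 0.43. In complex IV the subunits present in all tissues and the isoforms best known from muscle, lung or testis differed in count. Of the 10 general subunits 4 rose, with a median difference of 0.23: Ndufa4 (0.65), Cox5a (0.37), Cox6c (0.25) and Cox5b (0.22). Of the 7 tissue isoforms none rose or fell (median -0.08). Cox7a2l, studied for a part in joining complexes III and IV into supercomplexes, was the only member that fell. It read 9.04, 8.95 and 8.96 in TN alone and 8.61, 8.67 and 8.67 in TN mix, with every mix array lower (-0.33, SE 0.11, limma adjusted p = 0.0425, 0.000204 to 0.156 over the alternatives). That call was lost under 9 of 15 alternatives, among them centring each array, the replicate block and leaving out any 1 of the 6 arrays.

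In complex V, 4 of 17 rose. Of these 3 belong to the 4 genes of the peripheral stalk, which holds the catalytic head still against the turning rotor: Atp5pb (0.48), Atp5h (0.34) and Atp5j (0.31). Atp5pb read 11.07, 10.85 and 11.09 in TN alone and 11.61, 11.42 and 11.40 in TN mix, and Atp5j 10.36, 10.40 and 10.39 against 10.82, 10.54 and 10.71, without overlap in either gene. Of the 5 subunits of F1, the part made of the catalytic head and its central stalk, Atp5a1, the alpha subunit, rose (0.23). None of the 3 genes for the c ring, the rotor in the membrane, passed the test (median 0.04). The calls for Cox5b and Atp5a1 were each lost under 8 of 15 alternatives.

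**Figure D2:**
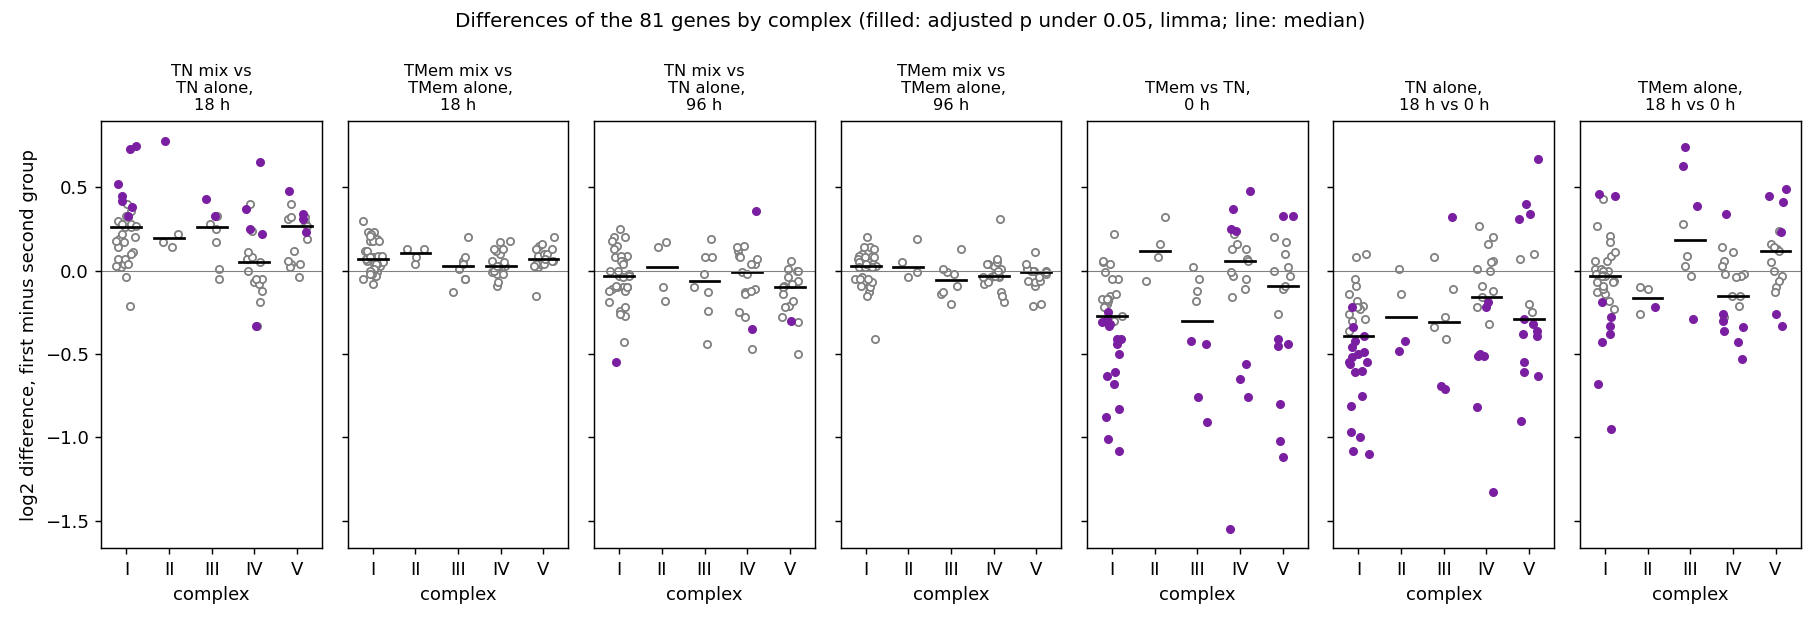
Log2 difference of each of the 81 genes (vertical axis) by complex (horizontal axis) in 7 comparisons, first group minus second. Filled points have an adjusted p under 0.05 by limma, open points do not, and lines are medians. Between TN mix and TN alone at 18 h, 18 filled points lie above 0 and 1 below, no point is filled for TMem mix against TMem alone at 18 h or 96 h, and the largest falls are those of Cox7a2l in TMem against TN at 0 h (-1.55) and in TN alone at 18 h against 0 h (-1.33).

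Other genes of the pathway were counted in the same comparison from lists that lie outside the rule. Of 40 assembly factors of the complexes 9 rose and none fell, among them Ndufaf1 (0.72) and Ndufaf4 (0.62) for complex I, Sco1 (0.55), a copper chaperone of complex IV, and Sdhaf3 (0.45) for complex II. Of 16 TCA cycle enzymes 8 rose and 2 fell, and those that rose included Idh3a (0.65), Fh1 (0.55) and Suclg2 (0.51). Of 77 mitochondrial ribosomal proteins, which make the subunits encoded by mitochondrial DNA, 29 rose and none fell, with a median of 0.34. Among 22 regulators of mitochondrial transcription and biogenesis 5 rose and 1, Ppargc1b (-0.28), fell. Of 15 glycolysis genes 2 rose, Hk2 (0.56) and Pgk1 (0.38). Markers of other cells moved little here: 1 of 10 myeloid markers rose, 1 of 6 mast cell markers fell, and none of the B, NK, CD4 or erythroid lists passed the test.

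The direction of the members' shift at 18 h held under every alternative run, with medians of 0.15 to 0.28, but the count did not. Of the TN alone arrays, leaving out replicate 1 left 11 higher, replicate 2 left 5 and replicate 3 left 10. Of the TN mix arrays, leaving out replicate 1 left 5, replicate 2 left 14 and replicate 3 left 10. None was lower in these 6 fits. The shares of all genes called in these 6 fits are not given. The counts therefore do not show whether the change was particular to the members. This holds for counts under other alternatives below as well, unless a share of all genes stands beside them.

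In TMem cells the same comparison at 18 h called no member by limma, where 0.0% of all genes were higher and 0.0301% lower. An unadjusted p under 0.05 was reached by 3 members. The differences ran from -0.15 to 0.3 with a median of 0.06, and the mix arrays all lay above the alone arrays for 11 members and below for none, against 7.43% and 4.67% of all genes. Sdhd averaged 10.72 ± 0.19 in TMem alone and 10.85 ± 0.05 in TMem mix (SD, n = 3 each). The test of the difference itself, the effect of mixing in TN minus that in TMem, called no member either, where 1.44% of all genes were higher and 3.73% lower. Its median over the members was 0.15, and 7 members had an unadjusted p under 0.05. Under alternatives this test called up to 10 members, that number with array weights. An effect of mixing that differed between TN and TMem at 18 h was thus not called for any member.

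At 96 h, 1 member rose in TN mix over TN alone and 3 fell, where 7.0% of all genes were called higher and 3.62% lower, and the median difference was -0.06 over the members and 0.05 over all genes. Cox7a1, the heart and muscle isoform of a complex IV subunit, read 6.60, 6.45 and 6.58 in TN alone and 6.83, 6.99 and 6.88 in TN mix (0.36, SE 0.09, limma adjusted p = 0.00959, 0.00018 to 0.0651 over the alternatives). Atp5g3, one of the c ring genes, read 12.28, 12.26 and 12.23 against 11.94, 11.92 and 12.03 (-0.30, SE 0.07, limma adjusted p = 0.00777, 0.00092 to 0.0618). Ndufb2, an accessory subunit of complex I, read 7.44, 7.63 and 7.50 against 6.94, 6.96 and 7.01 (-0.55, SE 0.15, limma adjusted p = 0.0175, 0.000371 to 0.086). In all 3 genes the groups did not overlap, with the mix arrays higher for Cox7a1 and lower for the other two. Cox5a read 9.59, 9.66 and 9.68 against 9.06, 9.40 and 9.41 (-0.35, SE 0.11, limma adjusted p = 0.0375, 0.00682 to 0.232), and its call was lost under 5 of 16 alternatives. The calls for Cox7a1 and Ndufb2 were lost without TN alone 96 h replicate 2 and without TN mix 96 h replicate 2. In all, 1 member was called without TN alone 96 h replicate 2 and 2 without TN mix 96 h replicate 2, while with quantile normalization 2 rose and 8 fell and with array weights 22 were called.

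Over the same arrays 14 of 15 glycolysis genes rose and none fell, with a median of 0.72, led in size by Aldoc (2.70) and the lactate exporter Slc16a3 (2.24), with the glucose transporters Slc2a3 (1.83) and Slc2a1 (1.43). No TCA cycle enzyme of 16 passed the test. In this comparison 4 of 6 mast cell and basophil markers fell (median -0.85), as did 2 of 4 NK markers (median -0.61). Whether they have a part in these differences was not tested. In TMem at 96 h no member was called by limma, where 0.968% of all genes were higher and 0.15% lower. The differences ran from -0.41 to 0.31, 3 members had an unadjusted p under 0.05, and array weights called 2. The difference of mixing effects at 96 h called no member, where 1.92% of all genes were higher and 1.62% lower, with 3 members at an unadjusted p under 0.05. It called 10 of the 15 glycolysis genes, all in the direction of a larger difference in TN.

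Before stimulation TMem were compared with TN. With all arrays 6 members were higher in TMem and 30 lower, where 18.4% of all genes were called higher and 17.5% lower, and the members' median was -0.16. Without TN alone 0 h replicate 1, 7 were higher and 17 lower, where 16.4% and 16.2% of all genes were called, and the median was 0.01. Of the calls, 3 higher and 17 lower were made both ways, and 17 members changed the sign of their difference. With all arrays the lower members included 14 of 27 accessory subunits of complex I, 3 of 5 small subunits of complex III and 4 of 5 small membrane subunits of complex V. Without that array these were 8, 2 and 2. Of the 7 tissue isoforms of complex IV 4 were higher with all arrays and 1, Cox7b2, without it. In complex II no gene was called with all arrays, and Sdhd (0.56) and Sdhb (0.36) were higher without it.

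Cox7a2l showed the widest gap between resting cell types. It read 10.64, 10.12 and 10.16 in TN and 8.63, 8.55 and 9.10 in TMem (-1.55, SE 0.11, limma adjusted p = 5.29e-12, and -1.38 without TN replicate 1). Uqcrh, the hinge protein between cytochrome c1 and cytochrome c, read 12.10, 11.85 and 11.96 against 11.14, 11.12 and 11.37 (-0.76, SE 0.09, limma adjusted p = 6.1e-08, and -0.69 without that array). Every TN array lay above every TMem array for both genes, and the array that stands apart was the highest of its group. Ndufb10, of the membrane arm of complex I, read 8.78, 8.12 and 8.36 against 7.32, 7.13 and 7.77 (-1.01, SE 0.16, limma adjusted p = 8.45e-06, and -0.83 without it). Ndufa6, a complex I subunit of the LYR protein family, read 11.35, 10.60 and 10.84 against 9.98, 9.99 and 10.17 (-0.88, SE 0.15, limma adjusted p = 1.67e-05, and -0.68 without it). Uqcr10, a small subunit of complex III, read 10.51, 9.58 and 9.75 against 9.08, 8.82 and 9.22 (-0.91, SE 0.16, limma adjusted p = 4.22e-05, and -0.63 without it). For these 3 genes as well the groups did not overlap. In the other direction were 2 of the 5 F1 subunits of complex V. Atp5d, the delta subunit, read 12.66, 12.71 and 12.71 in TN and 13.05, 13.03 and 12.99 in TMem (0.33, SE 0.06, limma adjusted p = 7.53e-05), and Atp5b, the catalytic beta subunit, 11.86, 12.03 and 11.95 against 12.28, 12.31 and 12.25 (0.33, SE 0.08, limma adjusted p = 0.00227). On these genes replicate 1 of TN was not high, and without it the differences were 0.31 and 0.29. Atp5e, also of F1, was lower in TMem, reading 11.05, 9.86 and 10.15 in TN and 9.24, 8.88 and 9.58 in TMem. Without TN replicate 1 its difference was -0.77 (limma adjusted p = 0.000925).

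Among the isoforms, Cox7b2 read 5.70, 5.69 and 5.49 in TN, near background, and 6.02, 6.42 and 5.90 in TMem (0.48, SE 0.13, limma adjusted p = 0.00531, and 0.52 without TN replicate 1), and its call was lost without TMem 0 h replicate 2. The calls for Cox7a1 (0.25) and Cox6b2 (0.24) were lost under 7 and 10 of 14 alternatives. Of the lists outside the rule, 14 of 15 glycolysis genes were higher in TMem and 1 lower (median 1.18), and without TN replicate 1 these were 13 and 1 (median 1.13). Of 77 mitochondrial ribosomal proteins 39 were lower and none higher (median -0.33), and without that array 21 were lower and 1 higher (median -0.18). Beside these, 4 of 6 mast cell markers and 3 of 4 erythroid and platelet markers were higher in TMem.

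**Figure D3:**
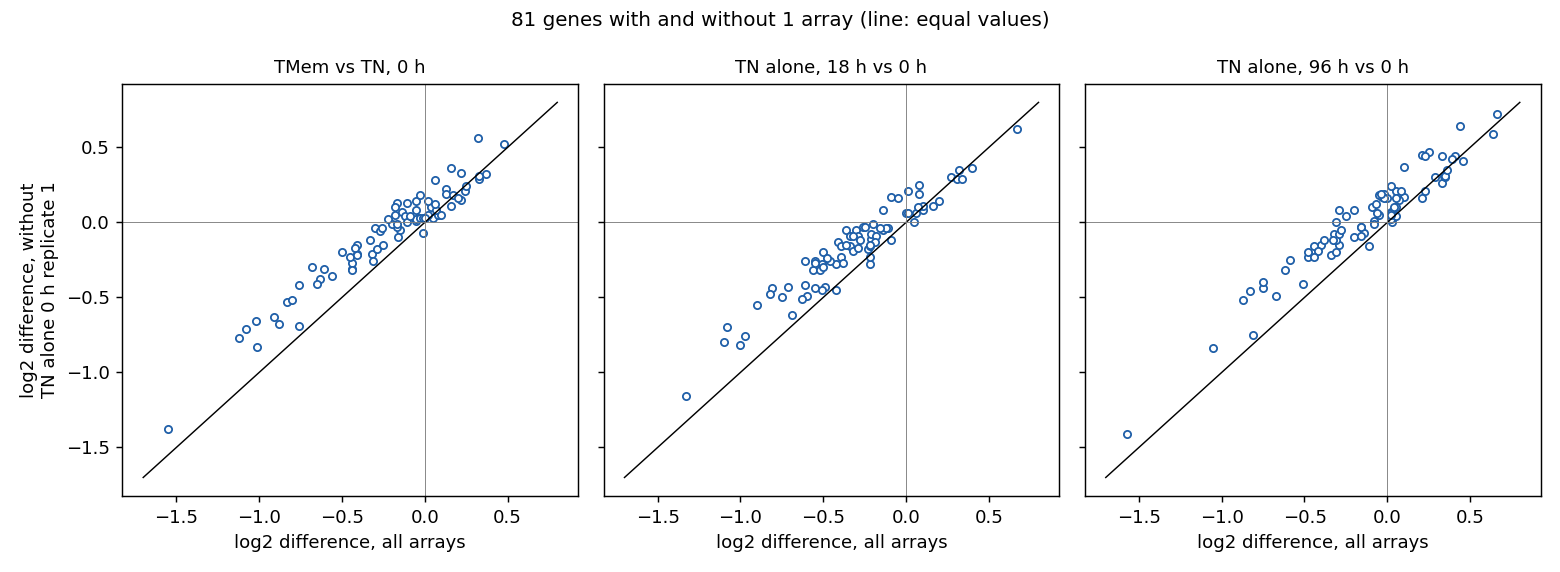
Log2 differences of the 81 genes with all arrays (horizontal axis) and without TN alone 0 h replicate 1 (vertical axis), for TMem against TN at 0 h and for TN alone at 18 h and 96 h against 0 h. The line marks equal values. Most points below 0 lie above the line, nearer 0 without the array, and the median moves from -0.16 to 0.01, from -0.29 to -0.15 and from -0.06 to 0.05.

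In TN cells stimulated alone for 18 h, judged against the same TN 0 h arrays, more members were lower than higher. As said above, this comparison cannot be told apart from a difference in the sex of the cells. With all arrays 5 rose and 39 fell, where 17.1% of all genes were called higher and 16.7% lower, and the medians were -0.29 over the members and -0.02 over all genes. Without TN alone 0 h replicate 1, 5 rose and 20 fell, where 15.7% and 14.2% of all genes were called, and the median was -0.15. All 25 of these calls were also made with the array in, and 3 members changed sign. With all arrays the falls lay in complex I (19 of 33), complex II (2 of 4), complex III (2 of 8), complex IV (7 of 19) and complex V (9 of 17), and without the array 13, 1, 2, 2 and 2 of them were called. All 4 genes of the peripheral stalk fell with the array in and 1, Atp5h (-0.51), without it, and no tissue isoform of complex IV fell either way. The 13 that fell in complex I without the array were all accessory subunits.

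The 5 that rose were the catalytic or rotor genes Atp5g1 (0.67), Atp5b (0.40), Atp5g3 (0.34) and Atp5d (0.31) of complex V and the core protein Uqcrc1 (0.32) of complex III, and all 5 rose without the array too, by 0.62, 0.36, 0.29, 0.29 and 0.35. Atp5g1, a c ring gene, read 12.07, 12.15 and 12.26 at 0 h and 12.75, 12.94 and 12.79 at 18 h (SE 0.08, limma adjusted p = 2.72e-07). Atp5g3 read 11.52, 11.68 and 11.64 against 11.99, 11.90 and 11.97 (SE 0.07, limma adjusted p = 0.000514), and Uqcrc1 10.58, 10.52 and 10.45 against 10.75, 10.91 and 10.83 (SE 0.07, limma adjusted p = 0.000895). In each the 18 h arrays all lay higher. Among the falls, Ndufa2, a complex I subunit with a thioredoxin-like fold, read 11.31, 10.33 and 10.45 at 0 h and 9.43, 9.66 and 9.70 at 18 h (-1.10, SE 0.16, limma adjusted p = 2.91e-06, and -0.80 without the array). Cox7a2l fell by 1.33 (limma adjusted p = 1.7e-10), and by 1.16 without the array. Ndufa6 read 10.05, 9.76 and 10.05 at 18 h (-0.97, limma adjusted p = 4.54e-06, and -0.76 without it), and Ndufa3, a small subunit of the membrane arm, 11.14, 10.76 and 10.88 at 0 h and 10.39, 10.35 and 10.40 at 18 h (-0.55, SE 0.09, limma adjusted p = 8.61e-06, and -0.44 without it). Uqcrh read 11.24, 11.24 and 11.35 at 18 h (-0.69, limma adjusted p = 3.22e-07, and -0.62 without it). For these genes all 18 h arrays lay below all 0 h arrays. Over the same arrays 10 of 15 glycolysis genes rose and 2 fell, 5 of 16 TCA cycle enzymes rose and 5 fell, and 6 of 77 mitochondrial ribosomal proteins rose and 27 fell. Without TN alone 0 h replicate 1 these were 10 and 1, 6 and 4, and 12 and 12.

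In TMem cells 10 members rose and 17 fell from 0 h to 18 h, where 18.0% of all genes were called higher and 17.3% lower, and the median was -0.03. This split depended on the scaling. With each array centred on its median 15 rose and 9 fell, with quantile normalization 8 rose and 23 fell, and without TMem alone 18 h replicate 1 the split was 9 and 8. Without TMem alone 0 h replicate 2, 6 rose and 12 fell, and without TMem alone 18 h replicate 3, 7 rose and 11 fell. Of the rises 3 lay in complex III and 4 in complex V. Uqcrq, a small subunit of complex III, read 8.70, 9.06 and 9.0 at 0 h and 9.49, 9.73 and 9.77 at 18 h (0.74, SE 0.13, limma adjusted p = 2.76e-05), and Uqcr10 9.08, 8.82 and 9.22 against 9.40, 9.79 and 9.84 (0.63, SE 0.16, limma adjusted p = 0.00241). Atp5g1 read 12.41, 12.42 and 12.26 against 12.75, 12.91 and 12.92 (0.49, SE 0.08, limma adjusted p = 2.3e-05), and Atp5g3 11.73, 11.78 and 11.63 against 12.04, 12.09 and 12.24 (0.41, SE 0.07, limma adjusted p = 4.4e-05). Uqcrc1 read 10.60, 10.53 and 10.47 against 10.88, 10.84 and 11.04 (0.39, SE 0.07, limma adjusted p = 7.85e-05). In all 5 the 18 h arrays lay above the 0 h arrays.

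Falls in TMem were led by Ndufv3, an accessory peptide of the NADH-oxidizing module, which read 9.60, 9.52 and 9.70 at 0 h and 8.58, 8.62 and 8.78 at 18 h (-0.95, SE 0.08, limma adjusted p = 4.1e-10). Ndufa3 read 10.52, 10.68 and 10.63 against 9.78, 9.98 and 10.02 (-0.68, SE 0.09, limma adjusted p = 2.44e-07), and Ndufa13, a complex I subunit, 9.93, 9.99 and 10.05 against 9.49, 9.66 and 9.53 (-0.43, SE 0.09, limma adjusted p = 0.000342). Cox7a2l fell here too, from 8.63, 8.55 and 9.10 to 8.15, 8.26 and 8.28 (-0.53, SE 0.11, limma adjusted p = 0.000317). All 4 were lower on every 18 h array. Cox6b2, a testis isoform, read 6.47, 6.73 and 6.58 against 6.17, 6.37 and 6.16 (-0.36, SE 0.10, limma adjusted p = 0.00353). Outside the rule 45 of 77 mitochondrial ribosomal proteins rose and 2 fell, 20 of 40 assembly factors rose and 4 fell, and 13 of 22 biogenesis regulators rose with none lower. In the same comparison 5 of 6 mast cell markers and 3 of 4 erythroid and platelet markers fell.

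The change from 0 h to 18 h differed between the cell types for 27 members. The difference, TMem minus TN, was higher for 23 and lower for 4, where 14.2% and 14.7% of all genes were called, with a median of 0.28. Without TN alone 0 h replicate 1 it was higher for 11 and lower for 4, where 12.7% and 13.1% of all genes were called, and the median was 0.13. The count was also 15 without TMem alone 18 h replicate 2 (12 higher and 3 lower) and 18 without TMem alone 0 h replicate 2. From 0 h to 96 h it was higher for 18 and lower for 4, where 16.5% and 13.2% of all genes were called, with a median of 0.20. Without the TN array these were 8 and 6, where 16.1% and 12.3% were called, and the median was 0.06. With quantile normalization 11 were higher and 10 lower, and 13 members were called without TMem alone 0 h replicate 2 and 14 without TN alone 96 h replicate 3.

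By 96 h TN alone had 14 members above and 22 below their level at 0 h, where 18.6% and 17.9% of all genes were called, with a median of -0.06. Without TN alone 0 h replicate 1, 14 were above and 8 below, where 17.5% and 16.5% were called, and the median was 0.05. Of the calls, 11 higher and 8 lower were made both ways, and 15 members changed sign. Atp5g3 read 12.28, 12.26 and 12.23 at 96 h (0.64 over 0 h, SE 0.07, limma adjusted p = 3.92e-08), and Cox5a, a matrix-side subunit of complex IV, rose from 9.09, 8.94 and 8.91 to 9.59, 9.66 and 9.68 (0.66, SE 0.11, limma adjusted p = 1.43e-05). Both genes were higher on every 96 h array. Sdhb, the iron-sulfur subunit of complex II, rose by 0.44, Uqcrc1 by 0.41 and Atp5d by 0.36. Cox7a2l read 8.67, 8.80 and 8.73 at 96 h (-1.57, limma adjusted p = 3.11e-12), Uqcrh 11.13, 11.23 and 11.10 (-0.81, limma adjusted p = 1.39e-08) and Ndufa6 9.78, 9.93 and 9.94 (-1.05, limma adjusted p = 1.22e-06), each below every 0 h array. Without TN alone 0 h replicate 1 the differences were 0.59 (Atp5g3), 0.72 (Cox5a), 0.64 (Sdhb), 0.44 (Uqcrc1), 0.35 (Atp5d), -1.41 (Cox7a2l), -0.75 (Uqcrh) and -0.84 (Ndufa6), and all 8 were still called. In complex I 11 of 33 genes fell with all arrays and 5 without that one, and in complex V 5 of 17 rose and 4 fell with all arrays, against 6 and 1.

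In TMem alone 13 members were higher and 2 lower at 96 h than at 0 h, where 16.1% and 8.44% of all genes were called, with a median of 0.07. With quantile normalization the split turned to 5 higher and 7 lower, with a median of -0.03. Without TMem alone 96 h replicate 1, 2 or 3 the splits were 8 and 1, 4 and 2, and 6 and 2, and without TMem alone 0 h replicate 2 and 3 they were 7 and 2, and 9 and 1. Uqcrc1 read 10.96, 11.06 and 11.03 at 96 h (0.48 over 0 h, SE 0.07, limma adjusted p = 7.89e-06), and Atp5g1 12.78, 12.86 and 12.88 (0.48, SE 0.08, limma adjusted p = 6.99e-05). Ndufs7, the core subunit that holds the last iron-sulfur cluster before ubiquinone, rose from 12.23, 12.26 and 12.25 to 12.54, 12.61 and 12.62 (0.35, SE 0.08, limma adjusted p = 0.00187). In all 3 the arrays of the 2 times did not overlap. The 2 that fell were Cox7b2 (-0.53), a call lost without TMem alone 0 h replicate 2, and Uqcrh (-0.28), a call lost under 3 of 14 alternatives.

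From 18 h to 96 h, a comparison that does not involve the 0 h groups, 21 members rose in TN alone and none fell by limma, where 11.3% of all genes were called higher and 13.1% lower, with a median of 0.19. Of all members 32 had an unadjusted p under 0.05. Complex II gave 3 of its 4 genes, complex I 7 of 33, complex IV 6 of 19, complex V 5 of 17 and complex III none of 8. Sdhd rose from 10.16, 9.93 and 9.97 to 10.64, 10.70 and 10.79 (0.69, SE 0.14, limma adjusted p = 0.000482), Sdha from 10.42, 10.24 and 10.34 to 10.76, 10.77 and 10.79 (0.44, SE 0.08, limma adjusted p = 9.4e-05), and Cox5a from 8.96, 9.11 and 8.89 to 9.59, 9.66 and 9.68 (0.66, SE 0.11, limma adjusted p = 2.95e-05). Every 96 h array was higher in these 3 genes. With each array centred on its median 13 rose and 1 fell, and leaving out 1 array left 14 to 17 higher. Over these arrays 4 of 6 mast cell and basophil markers and 3 of 4 NK markers rose, and whether they have a part here was not tested. This comparison and that of TN mix with TN alone at 18 h share the TN alone 18 h arrays.

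In TMem alone 18 members rose and 2 fell from 18 h to 96 h, where 14.6% and 9.87% of all genes were called, with a median of 0.10. With each array centred on its median 8 rose and 4 fell, without TMem alone 18 h replicate 1, 7 rose and 3 fell, and without TMem alone 96 h replicate 2, 10 rose and 1 fell. Ndufv3 read 9.64, 9.75 and 9.51 at 96 h (0.98, SE 0.08, limma adjusted p = 4.4e-10), Ndufa3 10.42, 10.51 and 10.50 (0.55, SE 0.09, limma adjusted p = 1.18e-05), and Cox7a1 rose from 6.30, 6.44 and 6.47 to 6.89, 7.18 and 7.04 (0.63, SE 0.09, limma adjusted p = 3.48e-06). All 3 were higher on every 96 h array. Uqcrq fell to 9.16, 9.20 and 9.22 (-0.47, limma adjusted p = 0.00614), and Atp5b from 12.51, 12.46 and 12.57 to 12.32, 12.11 and 12.34 (-0.26, limma adjusted p = 0.0245), a call lost under 3 of 15 alternatives.

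Stimulated TMem and TN cells cultured alone differed in few members. At 18 h, 8 were higher in TMem and 5 lower, where 15.4% and 13.5% of all genes were called. Sdhd read 10.61, 10.94 and 10.60 in TMem, above all TN alone arrays (0.70, SE 0.14, limma adjusted p = 0.00034), as did Atp5j, a peripheral stalk subunit, at 10.63, 10.76 and 10.85 against 10.36, 10.40 and 10.39 (0.37, SE 0.09, limma adjusted p = 0.00262). Sdha read 10.62, 10.62 and 10.60 (0.28, SE 0.08, limma adjusted p = 0.00827), a call lost without TN alone 18 h replicate 2. Cox7a2l (-0.76), Ndufa3 (-0.45), Ndufv3 (-0.41), Uqcrh (-0.35) and Atp5g2 (-0.20) were lower. The split turned with the setting: 4 higher and 6 lower with quantile normalization, 5 and 5 with each array centred, 3 and 5 without TMem alone 18 h replicate 2, 4 and 5 without TMem alone 18 h replicate 3, and 4 and 4 without TN alone 18 h replicate 2.

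At 96 h, 4 were higher in TMem alone than in TN alone and 4 lower, where 14.1% and 8.02% of all genes were called. Cox7a1 read 6.89, 7.18 and 7.04 against 6.60, 6.45 and 6.58 (0.49, limma adjusted p = 0.00014), Uqcr11 differed by 0.50 and Ndufa10, of complex I, by 0.31, while Atp5g3 read 11.97, 11.95 and 11.90 against 12.28, 12.26 and 12.23 (-0.32, limma adjusted p = 0.00147). With quantile normalization 1 was higher and 12 lower. The count was 3 without TN alone 96 h replicate 3 and 5 without TN alone 96 h replicate 1 or TMem alone 96 h replicate 2. In this comparison 4 of 6 mast cell markers and 3 of 4 erythroid and platelet markers were lower in TMem, which was not tested as a source of it.

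In mixed culture at 18 h no member was higher in TMem than in TN by limma and 5 were lower, where 11.8% and 8.64% of all genes were called and 15 members had an unadjusted p under 0.05. Ndufa3 read 10.07, 9.99 and 9.84 in TMem and 10.29, 10.35 and 10.37 in TN (-0.37, limma adjusted p = 0.00226), with no overlap, Ndufb2 6.56, 7.12 and 7.36 against 7.63, 7.50 and 7.51 (-0.53, limma adjusted p = 0.0122), and Cox7a2l 8.28, 8.28 and 8.32 against 8.61, 8.67 and 8.67 (-0.36, limma adjusted p = 0.022). Atp5h (-0.33) and Uqcrh (-0.28) were also lower. The count was 1 without TMem mix 18 h replicate 1, the lowest array for Ndufb2, 2 without TMem mix 18 h replicate 2, and 3 without TN mix 18 h replicate 2 or 3. With each array centred 17 were lower, a scaling that moved the median of all genes from 0.01 to -0.11. At 96 h in mixed culture Cox7a1 alone was called. It read 7.32, 7.38 and 7.34 in TMem and 6.83, 6.99 and 6.88 in TN (0.45, SE 0.09, limma adjusted p = 0.00106), where 6.68% of all genes were called higher and 3.94% lower, and 2 members were called without TN mix 96 h replicate 1.

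**Figure D4:**
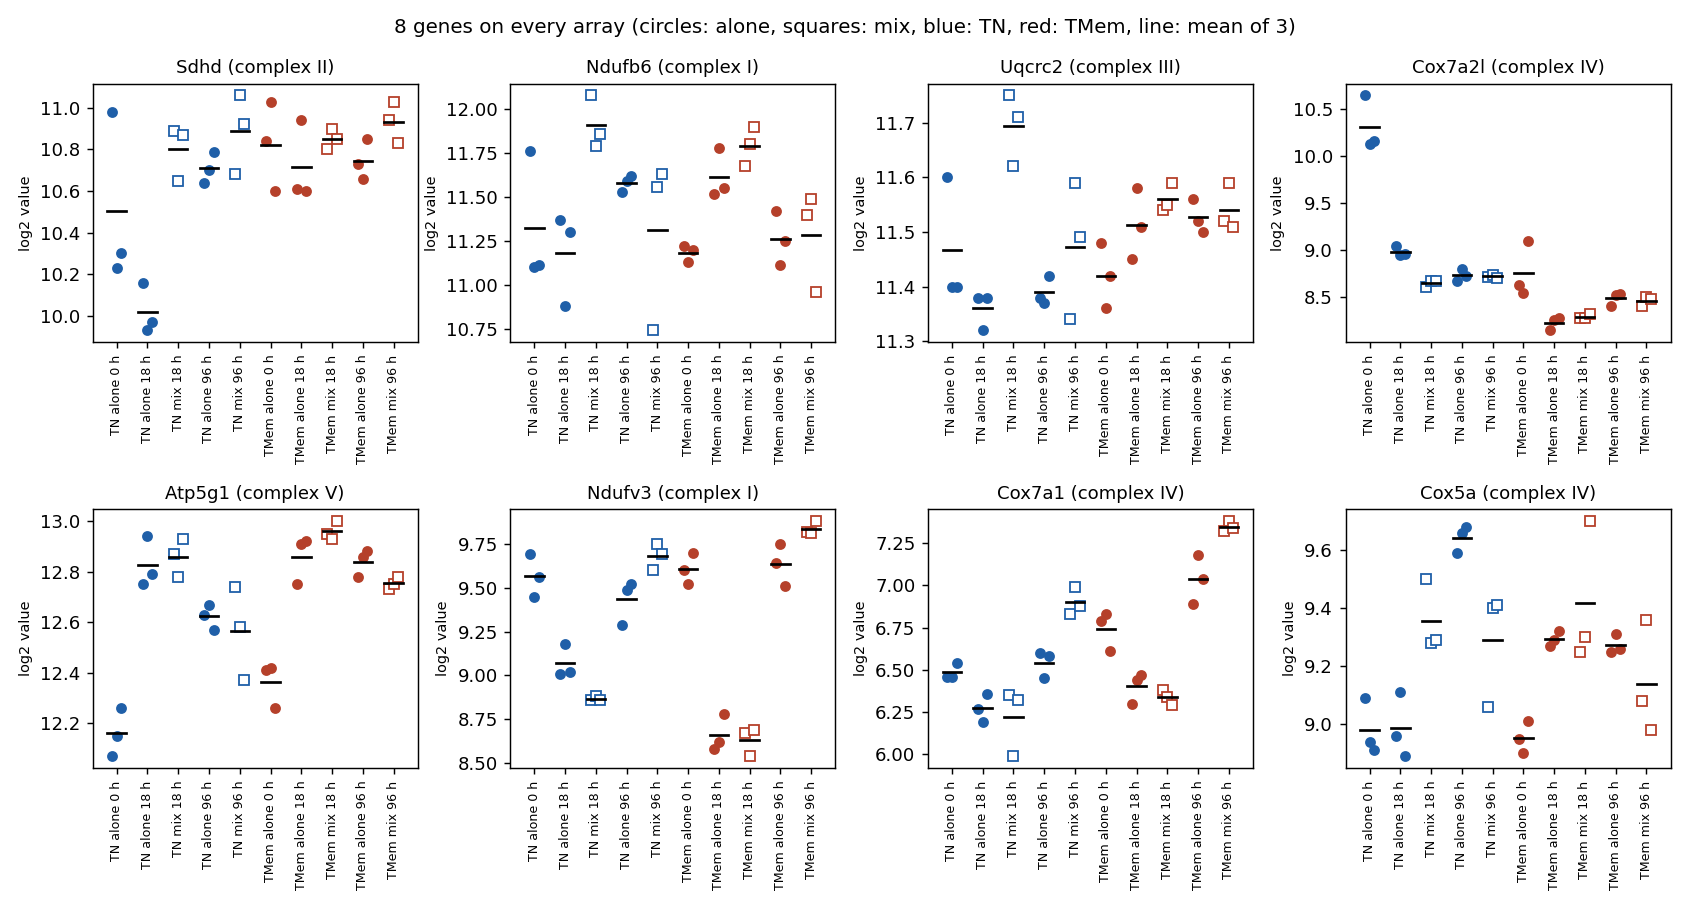
Log2 values of 8 genes on every array (vertical axes), by group (horizontal axes), with circles for alone, open squares for mix, blue for TN, red for TMem and black lines for means of 3 arrays. Sdhd is lowest in TN alone at 18 h (mean 10.02), Cox7a2l is highest in TN alone at 0 h (10.31), and Ndufv3 is lowest in both TMem groups at 18 h (8.66 and 8.64).

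Genes for isoforms of the same subunit differed in their patterns over the groups. The 3 c ring genes Atp5g1, Atp5g2 and Atp5g3 encode the same mature protein. Group means of Atp5g1 ran from 12.16 in TN alone at 0 h to 12.96 in TMem mix at 18 h, and those of Atp5g3 from 11.62 in TN alone at 0 h to 12.26 in TN alone at 96 h. Those of Atp5g2 stayed between 12.51 and 12.71, with no difference called among the 10 groups (limma adjusted p = 0.0940). That holds for the probe set used, 1 of 3 for this gene. The others correlated with it at 0.504 and 0.659, and the latter averaged 11.10 in TN mix at 18 h and 10.70 in TMem mix at 96 h. In the Cox7a family, Cox7a1 was lowest in both TN groups at 18 h, at 6.27 ± 0.09 alone and 6.22 ± 0.20 in the mix (SD, n = 3 each), and highest in the TMem groups at 96 h, at 7.04 ± 0.14 alone and 7.35 ± 0.03 in the mix. Cox7a2, the form found in most tissues, was highest in TN alone at 0 h (9.85 ± 0.36) and lowest in TN mix at 96 h (9.14 ± 0.26), groups whose spread is wide. Cox7a2l averaged 10.31 ± 0.28 in TN alone at 0 h, and its next highest group mean was 8.98 ± 0.05, in TN alone at 18 h. The remaining groups lay between 8.23 and 8.76, the TN groups at 96 h and TMem at 0 h differing by less than the spread of TMem at 0 h (SD 0.30).

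Cox4i2, the lung isoform (limma adjusted p over the 10 groups 0.778), Cox8b, a heart and muscle isoform (0.504), Ndufa4l2, a relative of Ndufa4 (0.479), and Cox6a2, the muscle isoform (0.0544), had no difference called. Their general counterparts Cox4i1 (0.0114), Cox8a (0.000351), Ndufa4 (0.00234) and Cox6a1 (0.0139) had one. These tests include TN alone 0 h replicate 1. It read 11.67 for Cox4i1, against 10.96 and 10.98 on replicates 2 and 3, and 10.93 for Ndufa4, against 9.87 and 9.93. Cox4i1, the largest nuclear-encoded subunit of complex IV, averaged 11.20 ± 0.40 in TN alone at 0 h and 10.56 to 10.78 elsewhere. For Cox6b the reverse was seen, with Cox6b1 not called (0.208) and the testis isoform Cox6b2 called (3.16e-05), its means running from 6.18 in TN mix at 18 h to 6.68 in TN alone at 96 h. Whether Cox6b2, Cox8b and Ndufa4l2 were expressed was, as said above, not tested. Of the catalytic and core genes followed throughout, Ndufv1 (0.165), Ndufs1 (0.116) and the Rieske protein Uqcrfs1 (0.0552) were not called, while Sdha (5.49e-05), Sdhb (0.00514), Uqcrc1 (3.85e-06), Cox5b (0.000412), Atp5a1 (0.00303) and Atp5b (0.000404) were. Sdha was lowest in TN alone at 18 h (10.33 ± 0.09), then in TN mix at 18 h (10.55 ± 0.08), and highest in TMem mix at 96 h (10.84 ± 0.03) and TMem at 0 h (10.83 ± 0.07), which differ by less than their spread. Atp5a1 was lowest in TN alone at 0 h (11.56 ± 0.02) and 18 h (11.66 ± 0.08), and Atp5b in TN alone at 0 h (11.95 ± 0.08) with its highest mean in TMem alone at 18 h (12.51 ± 0.06).

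**Figure D5:**
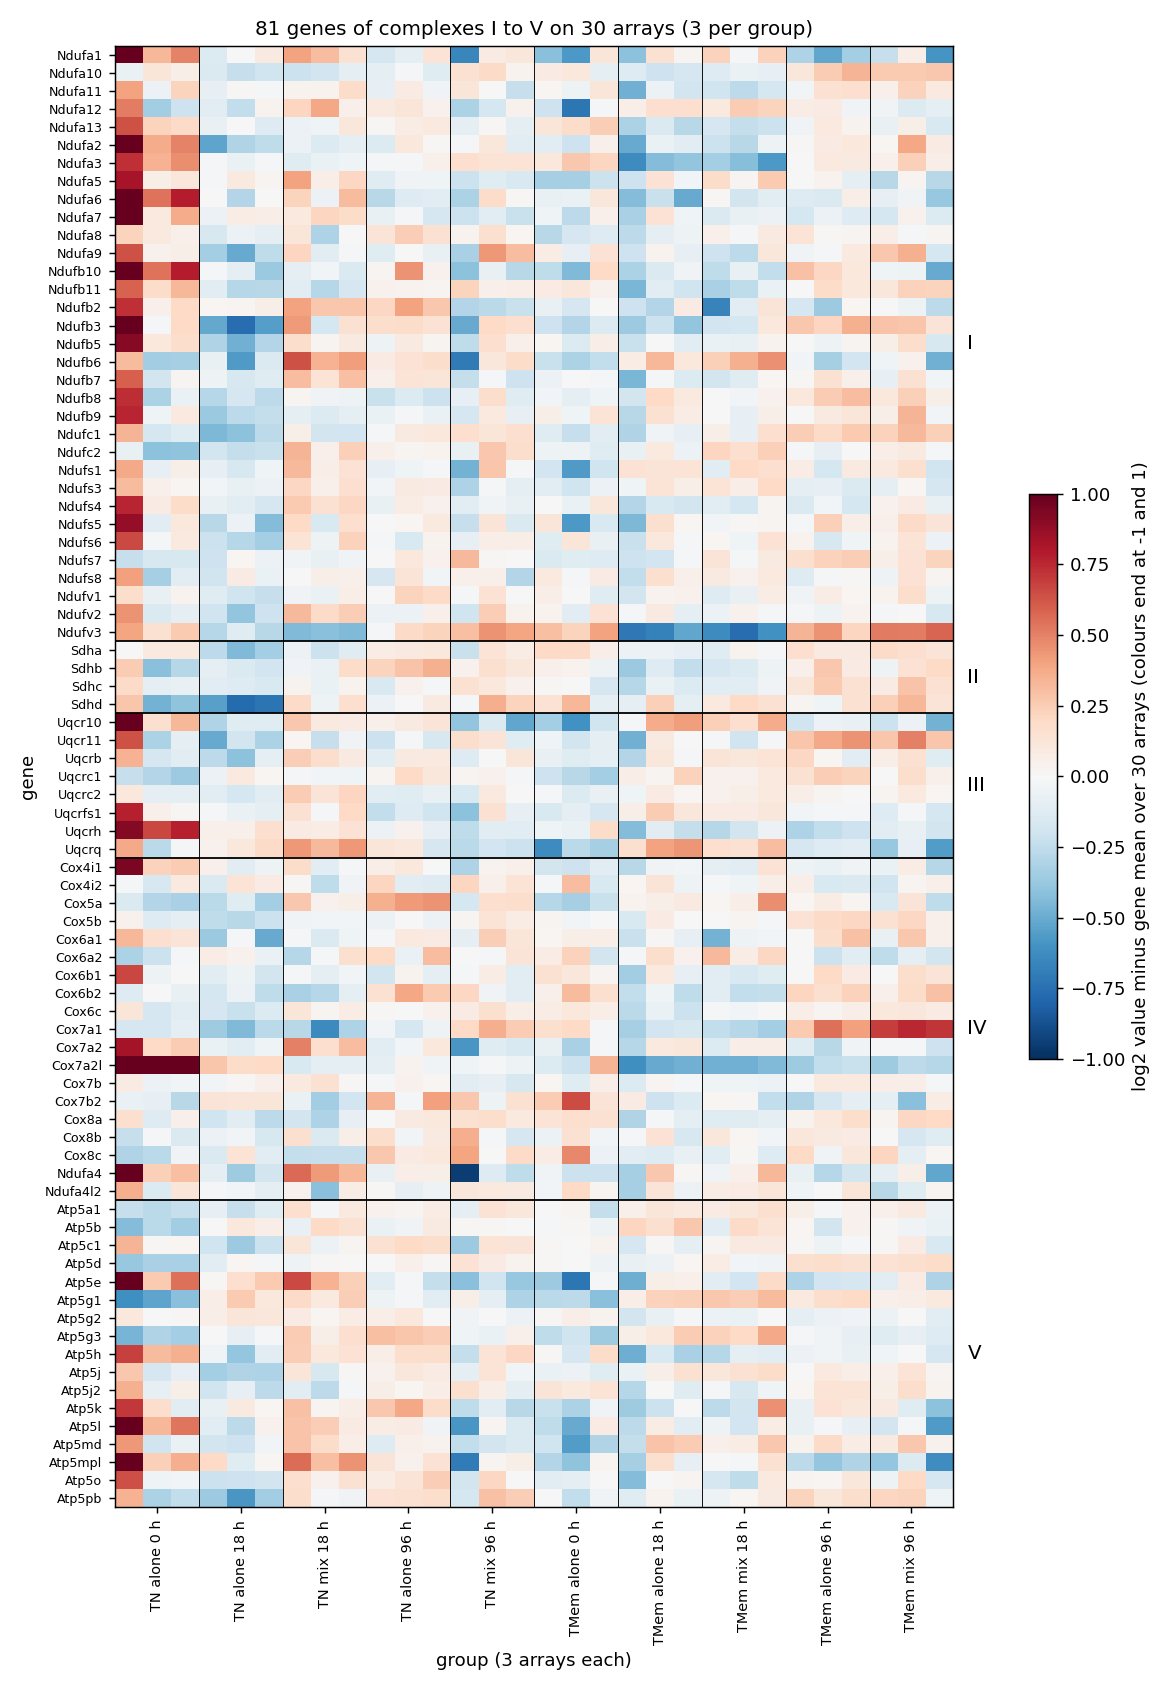
The 81 genes (rows, by complex) on the 30 arrays (columns, 3 per group), coloured by log2 value minus the gene's mean over 30 arrays, with colours ending at -1 and 1. The first column, TN alone 0 h replicate 1, is red for most genes of complexes I and III, and the Cox7a2l line is red in the TN alone 0 h columns, where its group mean is 10.31.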

How the data were processed

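The arrays were Affymetrix mouse gene arrays. Per the labels' protocols, RNA was extracted with QIAGEN kits, amplified by a whole transcriptome method and labelled with biotin. The authors deposited log2 values per probe set. RMA and Partek are named in the submitters' processing notes, with versions, order and role not given in the sources used here. Values ran from 2.05 to 14.2 and array medians from 6.76 to 6.94. The number of arrays, 3 per group, limits the precision.

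Of 35556 probe sets, 21789 named 1 gene (19938 genes, symbols from GRCm38.p6). The 105 probe sets of members gave 81 genes, and for the 16 with several the one with the highest mean was used. No called member had a probe set of the other sign. Another 6 probe sets that name a member among several genes were left out. A gene was near background where its group mean was under the arrays' lower quartile, averaged over the group.

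limma 3.58.1 (R 4.3.3) fitted a mean per group on all 30 arrays (lmFit, eBayes, 20 residual degrees of freedom), with Benjamini-Hochberg adjustment over all genes in each comparison and calls at adjusted p under 0.05. The procedure was tested on simulated data. Members carry values per array where called with groups apart and among the smallest adjusted p in their direction: up to 5 for each comparison of mix with alone, TMem with TN at 0 h and 18 h with 0 h, and up to 3 in the others. Catalytic, core and isoform genes were followed throughout, and up to 4 genes of each list were named. Members and lists were chosen with earlier results of these data known. Where animals are shared between samples is not given, so p-values measure the spread between these samples. Reported values come from fits without pairing unless a replicate block is named. Arrays numbered alike deviated together in every pair only for TN at 96 h (correlations 0.489, 0.312 and 0.137), and the block was run only as an alternative. Promoter sequences are RefSeq's. Alternatives were quantile normalization, centring, a low filter, other variance settings, array weights, only the groups compared, the mean over probe sets, a replicate block and leaving out each array.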

Additional observations from a re-analysis of the deposited data

Results flagged for a closer look

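Changes after stimulation that differed between the cell types, by limma's test of the difference itself (TMem minus TN, Benjamini-Hochberg adjusted p under 0.05), are given here with their values after leaving out TN alone 0 h replicate 1. From 0 h to 18 h the difference was called for 27 members, 23 higher and 4 lower, where 14.2% and 14.7% of all genes were called. Without that array 11 were higher and 4 lower, where 12.7% and 13.1% of all genes were called. For Uqcr10, a small subunit of complex III, it was 1.34 (SE 0.23, adjusted p = 4.67e-05), and 1.06 without that array. The level of Uqcr10 rose by 0.63 in TMem and fell by 0.71 in TN, or by 0.43 without that array. For Cox7a2l the difference was 0.79 (SE 0.16, adjusted p = 0.000299) and 0.63, for Ndufb10 1.01 (SE 0.23, adjusted p = 0.00113) and 0.83, and for Ndufa2 0.96 (SE 0.23, adjusted p = 0.00197) and 0.65.

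From 0 h to 96 h the difference was called for 22 members, 18 higher and 4 lower, where 16.5% and 13.2% of all genes were called. Without TN alone 0 h replicate 1, 8 were higher and 6 lower, where 16.1% and 12.3% of all genes were called. For Cox7a2l it was 1.30 (SE 0.16, adjusted p = 2.49e-07), and 1.14 without the array. For Cox7b2, a testis isoform near background in 7 groups, it was -0.91 (SE 0.19, adjusted p = 0.000433) and -0.95. The level of Cox7b2 fell by 0.53 in TMem and rose by 0.39 in TN, or by 0.42 without the array. For Ndufa6 the difference was 0.99 (SE 0.21, adjusted p = 0.00048) and 0.78, and for Ndufb10 1.05 (SE 0.23, adjusted p = 0.000681) and 0.87.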

How the results depend on the processing

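Of 2222 values of named members under the alternatives, 2026 kept direction and side of the threshold, 111 lost a call, 29 gained one and 56, none of them called with the reported settings, changed sign. Counts of members called moved by over 1.5 times in 69 of 385 alternatives and complex levels by more than the spread between replicates in 15 of 280. The cause was not tested. With 3 arrays a group, small differences can be missed. The counts in this section, and those above for alternatives given without a share, are of members alone, without the share of all genes called under the same setting. They therefore do not show whether a change of count was particular to the members.

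With quantile normalization 10 members were called between TN mix and TN alone at 96 h, 13 for TMem against TN alone at 96 h, and 9 and 3 for TMem mix against TN mix at 18 h and 96 h. The complex II difference for TMem at 18 h against 0 h was -0.29. With each array centred 12 were called for TMem at 96 h against 18 h, 17 for TMem mix against TN mix at 18 h and 3 for the difference of mixing effects at 18 h. Complex levels then gave 0.03 (II) and -0.19 (IV) for TMem against TN at 0 h, -0.11 (IV) between TN mix and TN alone at 96 h and -0.05 (IV) for TMem at 18 h against 0 h. With the low filter 8 were called for TMem mix against TN mix at 18 h and 2 for the difference of mixing effects at 18 h, and with trend and robust variance 1 for the latter.

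Array weights called 38 between TN mix and TN alone at 18 h and 22 at 96 h, 2 for TMem mix against TMem alone at 96 h, 23 for TMem at 96 h against 0 h, 38 for TN and 38 for TMem at 96 h against 18 h, 24 and 27 for TMem against TN alone at 18 h and 96 h, 20 and 14 for TMem mix against TN mix, and 10 and 3 for the differences of mixing effects. Fits on only the groups compared, with fewer arrays for the spread, called 12 for TMem against TN at 0 h, 23 for TN at 18 h and 16 at 96 h against 0 h, 9 for TMem at 96 h against 0 h, 39 for TN at 96 h against 18 h, 20 for TMem against TN alone at 96 h, 10 for TMem mix against TN mix at 18 h, 11 and 9 for the differences of stimulation effects at 18 h and 96 h, and 4 and 1 for those of mixing. Without the 0 h arrays, an alternative chosen after seeing the data, 9 were called between TN mix and TN alone at 96 h, 14 for TMem against TN alone at 96 h, 13 and 3 for TMem mix against TN mix at 18 h and 96 h, and 4 for the difference of mixing effects at 18 h.

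Leaving out 1 array gave counts of 5 to 14 between TN mix and TN alone at 18 h and 1 to 5 at 96 h, 25 to 53 and 22 to 40 for TN at 18 h and 96 h against 0 h, 17 to 22 and 6 to 12 for TMem at 18 h and 96 h against 0 h, and 10 to 20 for TMem at 96 h against 18 h. They were 8 to 14 and 3 to 9 for TMem against TN alone at 18 h and 96 h, 1 to 5 and 1 to 2 for TMem mix against TN mix, and 15 to 34 and 13 to 31 for the differences of stimulation effects. Complex levels for TMem against TN at 0 h ran from -0.45 to -0.14 (I), 0.05 to 0.25 (II), -0.46 to -0.19 (III), -0.15 to -0.01 (IV) and -0.29 to -0.08 (V). Those for TN at 18 h against 0 h ran from -0.55 to -0.25 (I), -0.33 to -0.13 (II), -0.37 to -0.10 (III), -0.28 to -0.14 (IV) and -0.25 to -0.05 (V).

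With a replicate block 15 members were called between TN mix and TN alone at 18 h and 4 at 96 h, and 5 at 96 h when the block was used in those groups only. No count moved by over 1.5 times with the block. Arrays with the same number did not deviate together in the other comparisons of mix with alone.

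Among the values that changed sign, array weights gave 0.01 (Ndufv1) in TMem mix against TMem alone at 18 h, 0.02 (Ndufs1) and -0.04 (Atp5b) between TN mix and TN alone at 96 h, -0.02 (Ndufs1) and -0.01 (Atp5b) in TMem mix against TMem alone at 96 h and 0.02 (Ndufv1) for TMem against TN at 0 h. Centring gave 0.02 (Uqcrc1) between TN mix and TN alone at 18 h and -0.06 (Atp5b) at 96 h, -0.01 (Cox5b and Atp5a1) in TMem mix against TMem alone at 18 h, -0.04 (Cox5b), -0.02 (Sdha) and -0.08 (Uqcrc1) for TMem against TN at 0 h, and 0.05 (Ndufv1) and 0.06 (Cox5b) for TMem at 18 h against 0 h. Quantile normalization gave -0.01 (Atp5b and Cox4i1) between TN mix and TN alone at 18 h, 0.01 (Ndufv1) and -0.02 (Atp5b) in TMem mix against TMem alone at 18 h and 96 h, -0.07 (Sdhb) for TN and -0.06 (Cox4i1) for TMem at 18 h against 0 h. The mean over probe sets gave -0.27 for Cox5b in TMem against TN at 0 h and 0.24 in TMem at 18 h against 0 h.

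Leaving out 1 array gave -0.03 to 0.12 (Cox4i1) and -0.01 to 0.12 (Atp5b) between TN mix and TN alone at 18 h, and -0.20 to 0.17 (Ndufs1), -0.17 to 0.01 (Sdha), -0.05 to 0.23 (Uqcrfs1) and -0.02 to 0.05 (Atp5b) at 96 h. In TMem mix against TMem alone it gave -0.08 to 0.03 (Ndufv1), -0.11 to 0.04 (Ndufs1), -0.09 to 0.01 (Uqcrc1 and Uqcrfs1) and -0.04 to 0.08 (Cox5b) at 18 h, and -0.02 to 0.09 (Ndufv1), -0.07 to 0.13 (Ndufs1), -0.09 to 0.04 (Sdhb), -0.12 to 0.05 (Cox4i1) and -0.06 to 0.05 (Atp5b) at 96 h. It gave -0.11 to 0.01 (Ndufv1) and -0.02 to 0.05 (Uqcrc1) for TMem against TN at 0 h, -0.13 to 0.21 (Sdhb) for TN at 18 h against 0 h, and -0.08 to 0.05 (Ndufv1) and -0.08 to 0.04 (Cox5b) for TMem.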
